A study of Mus musculus with 18 samples.

Results

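Foxl2, Sox14, Foxb1, Zic1, Zic4, Tbx18 and Onecut1 are 7 transcription factor genes that lie on mouse chromosome 9, the chromosome that also carries Eomes, at distances of 18.6 to 48.8 Mb from the Eomes start. Their contacts with the Eomes promoter and with the Eomes enhancers VPE, PSE_a and PSE_b were examined, out of 1203 protein-coding genes of chromosome 9 beyond 2 Mb from Eomes. For each gene a zone was taken, which is the annotated gene body (NCBIM37, the mm9 build) plus 10 kb to each side, and the reads on DpnII restriction fragments overlapping it were counted. The 7 genes were chosen by measured values of these libraries, and the rule does not record which ones. Their contacts at the Eomes promoter are taken as the values used, so at that viewpoint they are given as a description and are not tested. The enhancer values, which the rule names as a control, are tested, but they come from the same ligation libraries and may have been known as well.

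Interactions were measured by NG Capture-C, in which crosslinked chromatin is cut with DpnII, ligated and enriched with probes for chosen fragments (viewpoints), so that each read joins a viewpoint to another fragment. The groups were mouse embryonic stem cells (ESC, strain 129/Sv//EV, day 0), ESC-derived definitive endoderm (DE, strain 129/Sv//EV, day 5, obtained from embryoid bodies with Activin A and EGF) and erythrocytes (C57BL/6, day 5, from spleens of mice given phenylhydrazine), with 3 libraries in each group for a promoter capture and 3 for an enhancer capture. Both captures drew on the same 9 ligation libraries, so promoter and enhancer values of one library are not independent, and since the erythrocytes differ from the other cells in strain as well, the effects of strain and of cell type cannot be told apart. Contact data hold no expression values, so the labelled cell types could not be checked against marker genes, and nothing in the labels says whether the libraries of a group came from separate cultures or animals. The p-values therefore measure only the spread between these libraries.

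Eomes is a T-box factor that is required for gastrulation and for endoderm formation. The other genes encode regulators of later development and belong to several families: Foxl2 and Foxb1 are forkhead factors, known in the ovary and in the developing brain respectively. Sox14 is an SRY-related factor of neuronal subtypes, Zic1 and Zic4 are neighbouring zinc finger genes of the developing cerebellum, Tbx18 is a T-box factor of the heart and ureter, and Onecut1 acts in liver and pancreas. In ESC many promoters of such regulators are known to be CpG-rich and to carry Polycomb marks, and Polycomb-marked promoters are known to contact each other over long distances. No chromatin mark was measured here.

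Sequences upstream of 4 of the genes are shown because they let the base composition just before the starts of these genes be read directly. They are RefSeq promoter sequences found by exact match in NCBIM37 and cut to the bases outside every annotated exon, with each CpG in capitals, 5′ to 3′ on the gene's strand. They lie at chr9:98855776-98856025 (Foxl2, plus strand), chr9:99776664-99776839 (Sox14, minus strand), chr9:87626096-87626345 (Tbx18, minus strand) and chr9:74709478-74709727 (Onecut1, plus strand).
Foxl2: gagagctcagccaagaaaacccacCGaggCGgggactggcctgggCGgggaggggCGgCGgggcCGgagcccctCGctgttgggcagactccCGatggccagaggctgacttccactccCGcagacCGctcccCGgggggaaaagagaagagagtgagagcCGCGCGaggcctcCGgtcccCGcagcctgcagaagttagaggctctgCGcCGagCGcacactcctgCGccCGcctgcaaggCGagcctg
Sox14: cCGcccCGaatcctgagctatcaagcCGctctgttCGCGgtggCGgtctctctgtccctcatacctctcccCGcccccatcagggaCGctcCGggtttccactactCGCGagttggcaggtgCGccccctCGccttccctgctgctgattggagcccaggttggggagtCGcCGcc
Tbx18: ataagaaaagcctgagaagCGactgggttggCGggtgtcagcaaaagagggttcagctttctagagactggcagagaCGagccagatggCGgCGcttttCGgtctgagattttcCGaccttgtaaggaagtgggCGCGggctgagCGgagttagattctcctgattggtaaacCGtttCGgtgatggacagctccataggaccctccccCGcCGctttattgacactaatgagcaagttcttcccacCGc
Onecut1: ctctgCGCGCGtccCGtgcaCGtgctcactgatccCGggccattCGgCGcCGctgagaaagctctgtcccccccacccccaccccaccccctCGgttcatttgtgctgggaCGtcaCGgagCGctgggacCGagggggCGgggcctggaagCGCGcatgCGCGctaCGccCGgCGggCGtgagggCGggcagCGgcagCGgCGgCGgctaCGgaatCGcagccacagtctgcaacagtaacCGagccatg

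These stretches hold 22 CpGs in 250 bases at Foxl2, 15 in 176 at Sox14, 15 in 250 at Tbx18 and 31 in 250 at Onecut1. The stretches lie on 1 fragment each at Foxl2, Sox14 and Tbx18 and on 2 at Onecut1. Over the 3 ESC libraries the Eomes promoter gave these fragments 4 reads at Foxl2, 0 at Sox14, 2 at Tbx18 and 1 at Onecut1. The whole zones had 61 reads on 54 fragments, 48 on 40, 54 on 127 and 25 on 97, in the same order. Over the whole RefSeq promoter window of 300 bases (250 before the start and 50 after it, GRCm38.p6 table), 6 of the 7 genes had a sequence, with a median of 26.5 CpGs and a range of 8 at Zic4 to 38 at Onecut1. The median was 15.0 over 1054 windows of 871 chromosome 9 genes beyond 2 Mb, and 25 over 15 windows of 12 of the 18 other regulators described below. Of the chromosome 9 windows, 21.6% held at least as many CpGs as that of Foxl2 and 63.7% at least as many as that of Zic4. The Zic4 window (chr9:91263560-91263859) lies inside the gene annotated from 91257251, so it is not at the gene start used here. Without Zic4 the lowest count was 15, at Tbx18. The windows thus differed in CpG count, and the search for the letters CG counts the dinucleotide without reading its methylation.

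In ESC the Eomes promoter contacted all 7 zones, and in DE and erythrocytes the same zones received a far smaller part of its distant reads. The zones hold 477 of 291465 DpnII fragments beyond 2 Mb, which is 0.164%, and received 4.20% ± 0.523 (SD, n = 3 libraries) of the distant chromosome 9 reads in ESC, 0.758% ± 0.0404 in DE and 0.371% ± 0.105 in erythrocytes. In counts, the 3 ESC libraries gave 103, 134 and 83 reads, the DE libraries 54, 70 and 43, and the erythrocyte libraries 18, 6 and 7. Per 10000 distant reads these were 480, 382 and 399 in ESC, 78.9, 71.2 and 77.2 in DE, and 36.2, 27.0 and 47.9 in erythrocytes. The groups did not overlap in either comparison with ESC, and the mean level was 5.55-fold higher in ESC than in DE and 11.3-fold higher than in erythrocytes. Counting error alone (95% Wilson interval, which takes reads as independent molecules) gave 323 to 450 for the lowest ESC library and 60.6 to 103 for the highest DE library.

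Foxl2 showed the steepest of the differences between ESC and DE. Its zone received 88.5, 57.0 and 106 reads per 10000 distant reads in the ESC libraries, 5.85, 6.11 and 10.8 in DE, and 8.05, 4.50 and 6.84 in erythrocytes. Each ESC library was above each DE and erythrocyte library, and the ESC mean was 11.1-fold that of DE. Foxb1, the other forkhead gene and the farthest from Eomes, gave 51.2, 34.2 and 33.7 in ESC and 1.46, 4.07 and 5.38 in DE, a 10.9-fold difference of the means. No read reached Foxb1 in any erythrocyte library. The ESC mean was 11.4-fold a limit of 3 reads over the erythrocyte group, with the counting error of the ESC reads left out.

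Sox14, which lies within 1 Mb of Foxl2, gave 69.9, 59.8 and 57.7 reads per 10000 distant reads in ESC, 10.2, 6.11 and 5.38 in DE, and 12.1, 4.50 and 13.7 in erythrocytes. Its ESC libraries were the closest together of the 7 genes, and its ESC mean was 8.63-fold that of DE. Tbx18, of the same T-box family as Eomes, gave 41.9, 88.3 and 67.3 in ESC and 16.1, 17.3 and 14.4 in DE, which is a 4.14-fold difference. In erythrocytes 1 read fell in the Tbx18 zone in all.

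Zic1 and Zic4 lie head to head and overlap, and their zones share 55 fragments, so their values are largely 1 measurement. The Zic4 zone gave 191, 117 and 91.4 reads per 10000 distant reads in ESC, 35.1, 24.4 and 32.3 in DE, and 10.1, 9.005 and 13.7 in erythrocytes. The Zic1 zone gave 93.2, 65.5 and 43.3 in ESC, 20.47, 10.2 and 14.4 in DE, and 6.04, 4.50 and 0 in erythrocytes. In DE the Zic4 zone had the highest mean level (30.6 ± 5.53, SD, n = 3), above each library of Tbx18 (15.9 ± 1.48) and Zic1 (15.0 ± 5.18), which overlapped each other.

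Onecut1 was the lowest of the 7 genes in ESC, with 32.6, 25.6 and 43.3 reads per 10000 distant reads. It gave 8.77, 12.2 and 8.97 in DE and 6.04, 4.50 and 13.7 in erythrocytes, and its ESC mean was 3.39-fold that of DE, the smallest difference of the 7. In ESC the order of mean levels per zone was Zic4 (133 ± 51.7), Foxl2 (83.8 ± 24.8), Zic1 (67.3 ± 24.98), Tbx18 (65.9 ± 23.2), Sox14 (62.5 ± 6.49), Foxb1 (39.7 ± 9.99) and Onecut1 (33.8 ± 8.89). Neighbours in this order overlapped between libraries except Sox14 and Foxb1, whose lowest and highest libraries were 57.7 and 51.2.

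**Figure D1:**
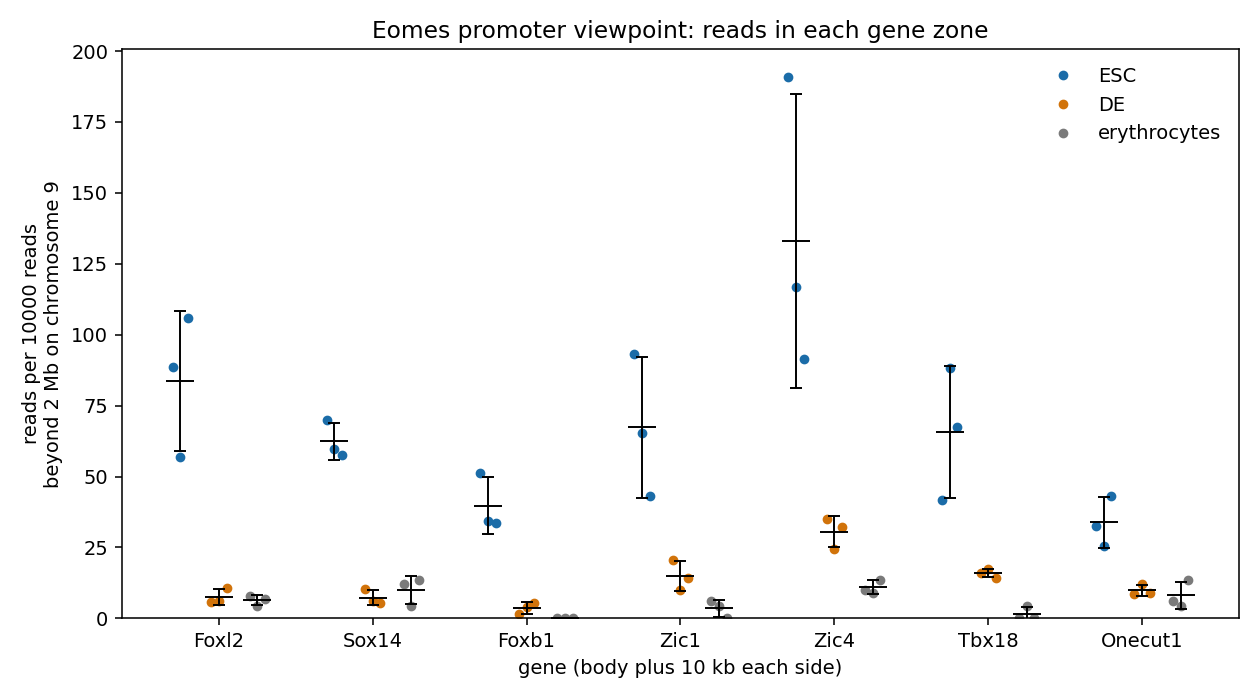
Reads of the Eomes promoter viewpoint in the zone of each gene, per 10000 reads beyond 2 Mb on chromosome 9 (y axis), for ESC, DE and erythrocytes. Points are the 3 libraries, and the bar and whiskers are their mean ± SD; for each gene all ESC points lie above all DE and erythrocyte points.

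All 7 genes had every DE library below every ESC library, as did 41 of 593 gene zones with at least 10 reads, which is 6.91%. In a limma fit over those zones 8 (1.35%) were lower and 2 (0.337%) higher in DE at an adjusted p under 0.05. The 7 genes are taken as chosen with this contrast known, so no call is given for them and nothing is read from these counts. Their median log2 difference on the log2(reads per 100000 distant reads + 50) scale was -1.90, beside -0.03 for the other regulators and 0.15 for all zones.

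Zone length differs between the genes, from 40 fragments (Sox14) to 127 (Tbx18), so levels were also taken per DpnII fragment. Reads of the 7 genes were densest near their starts, so a long gene body lowers this value. The ranks therefore still depend on gene length. In ESC, Sox14 (1.56 reads per 10000 distant reads and fragment), Foxl2 (1.55), Zic4 (1.23), Zic1 (1.07) and Foxb1 (0.923) took ranks 1 to 5 of 1203 genes, with Tbx18 (0.519) at rank 7 and Onecut1 (0.349) at rank 13. The median gene stood at 0.0207. In DE the ranks ran from 13 (Zic4) to 159 (Foxb1). In erythrocytes they ran from 13 (Sox14) to 757 (Foxb1, with no read).

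**Figure D2:**
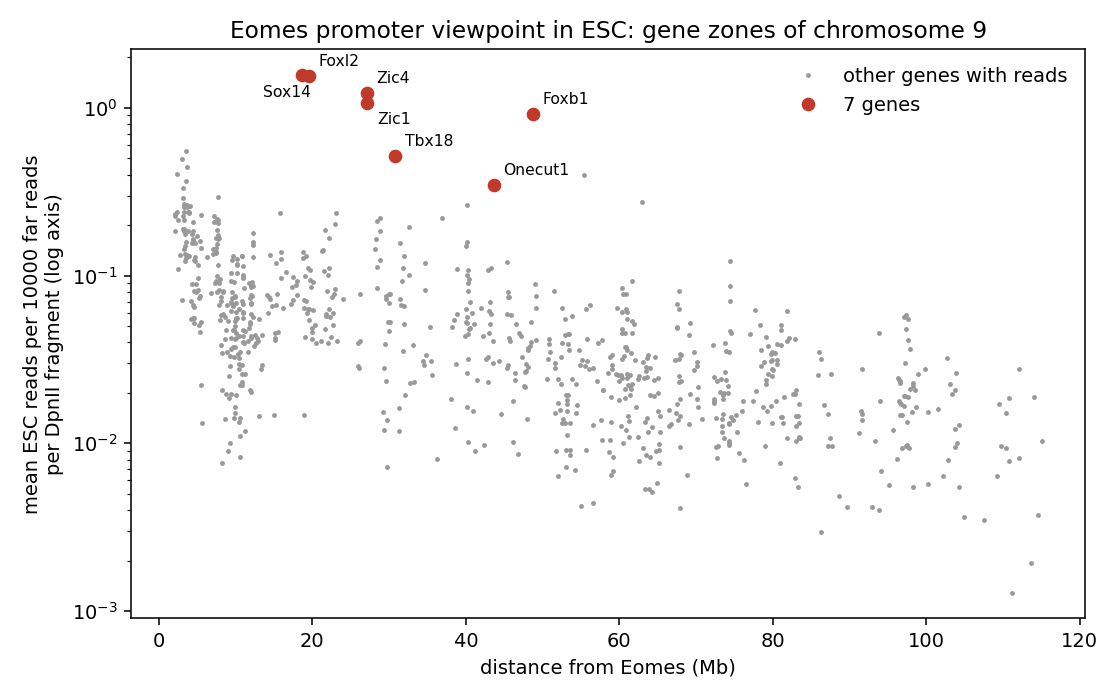
Mean ESC level of the Eomes promoter viewpoint per DpnII fragment (y axis, log scale) against distance from Eomes in Mb (x axis) for gene zones of chromosome 9. The 7 genes are red and 845 other genes with reads are grey, while 351 others without reads cannot be drawn on the log axis; Sox14 and Foxl2 stand highest, at 1.56 and 1.55.

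By the mean of 3 libraries, the reads of the Eomes promoter in ESC and DE were denser in each zone than in the surrounding megabase, while in erythrocytes this held for only some of the genes. Per fragment, the Zic4 zone held 32.1 ± 12.0 times the reads of its flanks of 1 Mb on each side in ESC, 11.2 ± 1.94 times in DE and 2.23 ± 0.384 times in erythrocytes (SD, n = 3). For Foxl2 the ratios were 22.4 ± 10.0, 2.58 ± 1.10 and 1.45 ± 0.434, and for Onecut1 9.43 ± 3.30, 3.42 ± 1.15 and 2.96 ± 1.49. In erythrocytes Tbx18 (0.235 ± 0.408, from 1 read) and Foxb1 (no read) were below their flanks. Around the starts of the 6 loci (Zic1 and Zic4 taken as 1), the level within 20 kb was 17.1 times that at 100 to 200 kb in ESC, 3.95 times in DE and 1.64 times in erythrocytes.

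**Figure D3:**
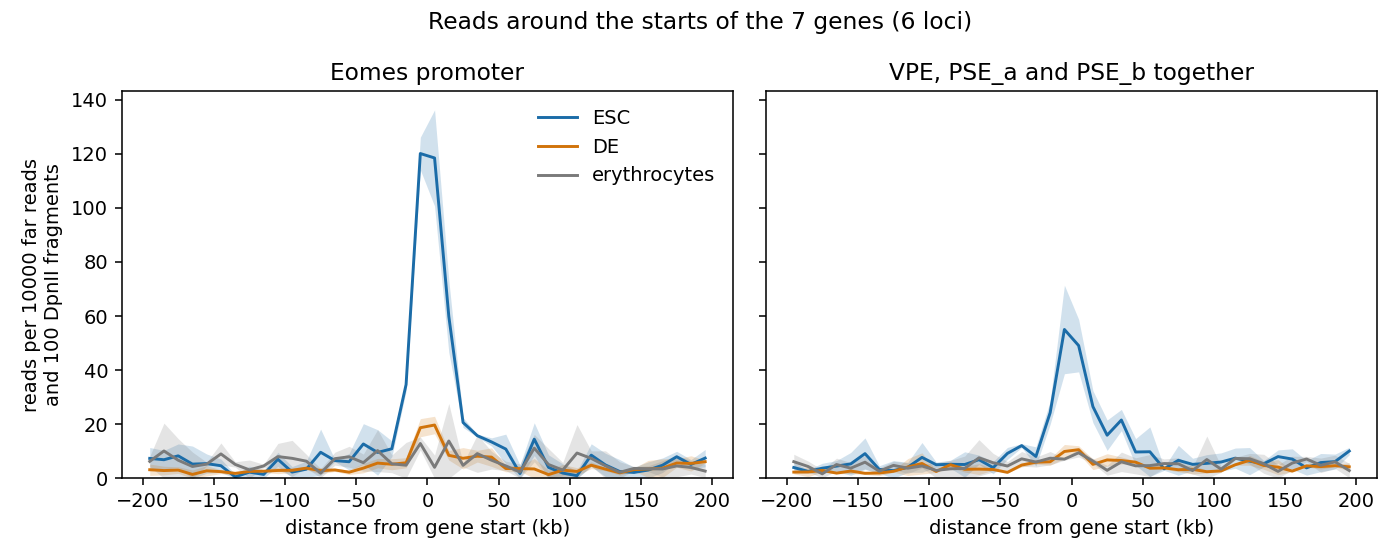
Reads per 10000 distant reads and 100 DpnII fragments (y axis) in 10 kb bins by distance from the gene start in kb (x axis), for the Eomes promoter and for the 3 enhancer viewpoints together. Lines are means of 3 libraries and bands ± SD; at the Eomes promoter the ESC line peaks at 120 next to the start and the DE line at 19.7.

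The contacts were spread over many ligation sites. In ESC 183 of the 477 fragments carried at least 1 read, 55 carried reads in more than 1 library, and no fragment had more than 6 reads in a library. The fragment with the most reads in ESC, 8 over the 3 libraries, lay at chr9:69607381-69607833 inside Foxb1. In DE 118 fragments and in erythrocytes 26 carried reads.

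The enhancer viewpoints gave the same zones a second set of reads from a separate capture of the same ligation libraries. All 3 enhancers lie close to the Eomes start, so their distant contacts are not independent of those of the promoter. Together, VPE, PSE_a and PSE_b placed 154, 117 and 48 reads in the zones in ESC, 67, 84 and 56 in DE and 37, 17 and 13 in erythrocytes. Per 10000 distant reads these were 234, 176 and 147 in ESC, 34.9, 38.7 and 46.8 in DE, and 28.1, 28.7 and 39.4 in erythrocytes. The ESC libraries were above all others, with a mean 4.62-fold that of DE and 5.79-fold that of erythrocytes. Scaled to all chromosome 9 interactions, the log2 difference of erythrocytes from ESC was -1.77 in place of -2.53, and at the Eomes promoter -2.75 in place of -3.50. The exact permutation test (two-sided, 3 against 3 libraries) gave p = 0.1 for each, the smallest value this design allows, and 0.133 after Benjamini-Hochberg adjustment over 8 comparisons.

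By viewpoint, the summed level was 226 ± 67.7 in ESC and 36.4 ± 5.41 in DE at VPE, and 168 ± 39.9 and 38.8 ± 4.00 at PSE_a, without overlap of the libraries (exact permutation p = 0.1 for each). PSE_b gave 128 ± 59.5 in ESC and 49.2 ± 21.3 in DE, with 1 ESC library (59.3, from 5 reads) under 1 DE library (72.2), and exact permutation p = 0.2. In erythrocytes PSE_b gave 65.0 ± 36.1, and its libraries overlapped those of ESC as well. The Eomes promoter, whose values are taken as those used to choose the genes, gave 420 ± 52.3 in ESC. The sums of VPE and PSE_a take in stretches without any read, described below, so levels are not compared between viewpoints.

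**Figure D4:**
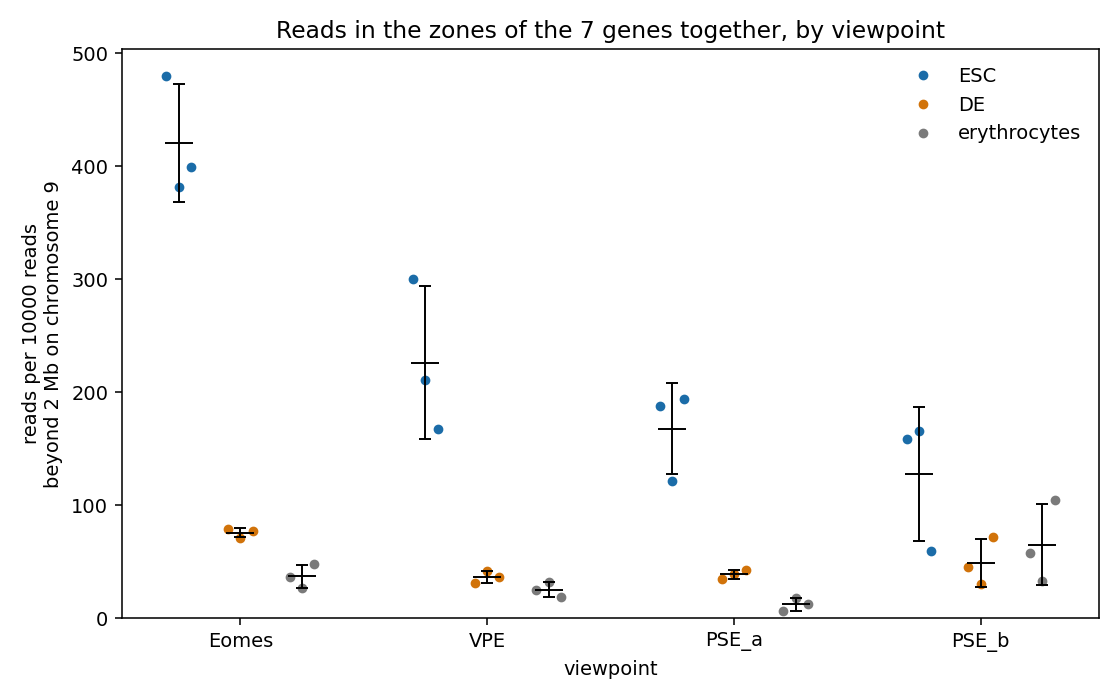
Reads in the 7 zones together per 10000 distant reads (y axis) for the viewpoints Eomes promoter, VPE, PSE_a and PSE_b (x axis). Points are libraries, bars and whiskers mean ± SD (n = 3). ESC lies above DE and erythrocytes at each viewpoint except PSE_b, where the libraries overlap. VPE and PSE_a had no read over parts of the zones.

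Some zones were empty for single viewpoints. VPE had no read in any of its 9 libraries over 128 consecutive fragments (chr9:91225887-91283355), which take in all 63 fragments of the Zic1 zone and 81 of the 108 of Zic4, where the Eomes promoter had 165 reads. PSE_a had none over 107 fragments (chr9:99766573-99810711), covering 38 of the 40 of Sox14, where the Eomes promoter had 86. What left these stretches empty was not tested. In the pooled enhancer levels and in the fit below, an empty viewpoint adds distant reads to the total but none over the empty stretch. These levels of Zic1, Zic4 and Sox14 are therefore lower than with that viewpoint left out. With VPE left out of reads and total for Zic1, its level was 32.0 ± 5.32 per 10000 distant reads in ESC and 6.03 ± 2.80 in DE, against 16.7 ± 2.67 and 2.59 ± 1.06 with VPE in the total. Zic4 without VPE was at 43.6 ± 12.6 and 13.0 ± 4.11, and Sox14 without PSE_a at 31.5 ± 20.9 and 8.72 ± 2.63 (SD, n = 3 each).

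Gene by gene, all 7 zones were lower in DE than in ESC at the enhancers in the limma fit over 869 zones, of which 13 (1.5%) were lower and 9 (1.04%) higher at an adjusted p under 0.05. Foxl2 fell most, with a log2 difference of -2.44 ± 0.27 (SE, limma, adjusted p = 6.75e-17), on 94 reads in ESC and 32 in DE, in a fit that pools the spread between libraries over all zones. Zic4 (-1.62, adjusted p = 7.81e-06 in limma), Tbx18 (-1.51, adjusted p = 1.69e-05) and Zic1 (-1.52, adjusted p = 0.000695) followed. The 50 added before the log shrinks differences most in zones of low level, and the order depends on it. As log2 ratios of the mean levels, Foxl2 was at -3.22, Zic1 at -2.69, Zic4 at -2.14 and Tbx18 at -1.98. Onecut1 (-1.23, limma adjusted p = 0.00721), Foxb1 (-1.21, 0.0138) and Sox14 (-1.13, 0.0157) were closest to the threshold. All 7 also had every DE library below every ESC library, as had 64 of the 869 zones, or 7.36%. The choice of the genes may have used these enhancer values, so their p-values and calls are not independent support.

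With the empty viewpoint left out for Zic1, Zic4 and Sox14, their log2 differences were -1.77, -1.42 and -1.28, and 7 genes were again called. Foxl2, Zic4 and Tbx18 were past the threshold under each of 15 other settings, with adjusted p up to 0.00103, 0.0382 and 0.0382. Sox14 lost the call under 8 of them, Foxb1 under 7, Onecut1 under 6 and Zic1 under 1, with each gene lower in DE throughout. Leaving out 1 library left 3 to 7 of the 7 genes called: 3 without DE replicate 1, 4 without ESC replicate 1 or 2 or DE replicate 2 or 3, and 7 without ESC replicate 3. These counts show only how the calls depend on the settings. They are not independent support either, since the choice of the genes may have used the same values.

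**Figure D5:**
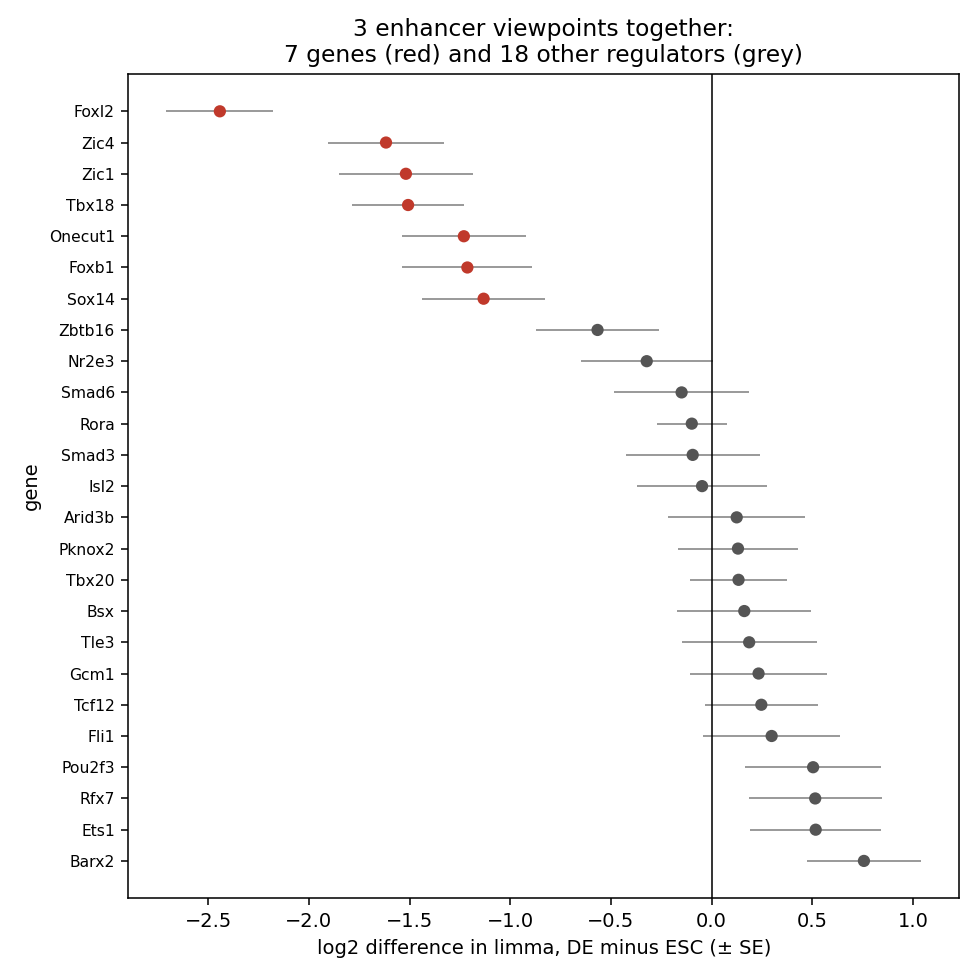
Difference of DE from ESC in log2(reads per 100000 distant reads + 50) at the 3 enhancer viewpoints together (x axis), with its limma SE, for the 7 genes (red) and 18 other chromosome 9 regulators (grey). The 7 genes lie between -2.44 and -1.13, and the other regulators between -0.57 and 0.76.

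The genes were set beside a list of 18 other developmental regulators of chromosome 9, which was also made with earlier results known. At the enhancers 0 of 18 passed the threshold in limma (1, Barx2, was higher in DE when scaled to all chromosome 9 interactions), with a median log2 difference of 0.15 against -1.51 for the 7 genes and 0.09 for all 869 zones. At an unadjusted p under 0.05 there was 1 of 18 (Barx2, higher in DE) in limma and DESeq2 and 2 in edgeR, neither of which passed after adjustment. At the Eomes promoter 0 of the 14 with enough reads passed in limma, edgeR or DESeq2, and 1 (Isl2) had an unadjusted p under 0.05 in each. The 3 with the highest ESC level per fragment there were Isl2, a LIM homeodomain gene (0.275 per 10000 distant reads and fragment, 11 reads), Gcm1 (0.0692, 3 reads) and Bsx (0.0623, 4 reads). They also had the shortest zones of the 18, with 61, 68 and 61 fragments, while Rora had 1790. The 7 genes and this list are thus not matched for zone length. Isl2 was at 16.8 ± 13.1 per zone in ESC and 4.02 ± 0.401 in DE, with overlapping libraries.

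The genes whose pattern over 12 means (4 viewpoints by 3 cell types) was most like the summed level of the 7 genes were Skor1 (Pearson r = 0.962), Rasgrf1 (r = 0.946) and Pth1r (r = 0.879), among 657 genes with at least 30 reads. The means come from shared libraries, so r is a description. Skor1, which encodes a transcriptional corepressor, received 10, 3 and 5 reads from the Eomes promoter in ESC, 3, 6 and 5 in DE and 3, 0 and 0 in erythrocytes. Per 10000 distant reads this was 26.4 ± 19.1 in ESC and 6.49 ± 2.32 in DE. Rasgrf1, a Ras exchange factor gene, received 74.4 ± 15.5 per 10000 distant reads from the Eomes promoter in ESC and 22.9 ± 5.79 in DE. Pth1r, the parathyroid hormone receptor gene, received 35.9 ± 16.1 from the Eomes promoter in ESC and 21.8 ± 7.91 in DE. From the 3 enhancers it received 27.8 ± 2.98 per 10000 distant reads in ESC and 12.7 ± 4.20 in DE. Rasgrf1 was called lower in DE at the Eomes promoter (limma adjusted p = 0.000482) and Pth1r at the enhancers (limma adjusted p = 0.0392). A lower level in DE was thus not particular to the 7 genes. The genes were picked for this likeness, so these values are a description.

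From viewpoints on other chromosomes the 7 zones, 0.164% of the chromosome 9 fragments beyond 2 Mb, received few reads at a low depth. In ESC, Foxa2 and Lhx1 had 1751 chromosome 9 reads in all, and Hbb and Slc25a37 had 1335. The Foxa2 and Lhx1 promoters together gave 3, 1 and 2 reads in ESC, 6, 7 and 4 in DE and 4, 0 and 0 in erythrocytes, or 39.7 ± 29.5, 34.2 ± 4.16 and 8.97 ± 15.5 per 10000 of their chromosome 9 reads. A difference between ESC and DE was not detectable at this depth (exact permutation p = 0.9, two-sided, 3 against 3 libraries). The Hbb and Slc25a37 promoters, viewpoints of erythroid genes, gave 5 reads in ESC, 6 in DE and 3 in erythrocytes, or 42.3 ± 22.5, 17.2 ± 6.15 and 9.46 ± 8.95 per 10000 of their chromosome 9 reads. The means were highest in ESC, and exact permutation gave p = 0.2 (two-sided, 3 against 3 libraries) for each comparison with ESC.

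The share of distant reads was not lower outside ESC. The part of chromosome 9 reads lying beyond 2 Mb was 23.0% ± 0.791 in ESC and 29.7% ± 0.527 in DE at the enhancers (difference 6.74 percentage points, exact permutation p = 0.1, two-sided) and was 40.1% ± 9.05 in erythrocytes. At the Eomes promoter it was 24.6% ± 1.53, 28.6% ± 0.980 and 42.0% ± 5.20. Depth was lowest in ESC and erythrocytes, with 2079 to 3510 and 1461 to 4966 distant reads per library at the Eomes promoter against 5572 to 9826 in DE. Erythrocyte replicate 2 stood apart, with a median of 74.6% of reads on chromosome 9 over the 4 viewpoints against 38.9% and 40.2% in the others. Without it the summed level at the Eomes promoter in erythrocytes was 42.1 per 10000 distant reads, against 37.1 with it.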

How the data were processed

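Interactions were measured by NG Capture-C with DpnII in 3 ESC, 3 DE and 3 erythrocyte libraries, each captured for promoters and for enhancers. The submitters' processing notes name Trim Galore, Bowtie and mm9, without versions. The deposited signal is interactions per fragment, which the authors scaled to the same total in each column. Whole reads were recovered by dividing each value by the smallest step of its column (100% of low values within 0.1 of a whole number), and 72 of 108 columns were used, the other 36 (all Hba columns, and Hbb and Slc25a37 where captured with the enhancers) being left out. Column names carry the library letter, which the labels number 1 to 3.

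Levels are reads in a zone per 10000 reads of that viewpoint on chromosome 9 beyond 2 Mb from Eomes; trans viewpoints are per 10000 of their chromosome 9 reads. Gene zones with at least 10 reads were tested with limma 3.58.1 (lmFit and eBayes with trend, R 4.3.3) on log2(reads per 100000 distant reads + 50), ESC and DE libraries only, with Benjamini-Hochberg adjustment over all zones. Sums were compared by exact permutation tests (two-sided), and edgeR 4.0.16 and DESeq2 1.42.0 on the recovered reads served as alternatives. On simulated data with 4-fold changes, limma recovered 47.0% of 200 changed zones for the Eomes promoter (593 zones) and 50.0% for the enhancers (869 zones), with 3.09% and 5.66% of calls false. Among zones under 30 reads 8.82% and 20% of calls were false. The simulation used the same fixed dispersion in every zone, which was not estimated from these libraries. Replicates were compared by chi-square over 40 kb bins. The libraries of ESC and of DE, and erythrocyte replicates 1 and 2 (chi-square p = 0.000149), differed beyond counting noise. For erythrocyte replicate 3 against 1 and 2 a difference was not detected (chi-square p = 0.0805 and 0.108). No library was counted as a duplicate. Reads carry no molecular identifiers, so intervals cover counting error only.

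The genes and lists were chosen with earlier results of these data known. Genes named beyond the 7 were the 3 other regulators highest in ESC per fragment, any regulator past the limma threshold, and the 3 genes most correlated with the summed level.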

Additional observations from a re-analysis of the deposited data

How the results depend on the processing

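The ratio of the summed level of the 7 genes kept its direction at the Eomes promoter and at the enhancers under each alternative tried. On the log2 scale the Eomes promoter difference of DE from ESC was -2.47, -2.25 per chromosome 9 interactions, and -2.54 to -2.37 with 1 library left out. That of erythrocytes was -3.50, -2.90 with zones of 25 kb, -2.75 per chromosome 9 interactions, and -3.73 to -3.32 with 1 library left out. At the enhancers leaving out 1 library gave -2.35 to -2.01 for DE and -2.71 to -2.33 for erythrocytes, beside -2.21 and -2.53 in all libraries. Scaling to chromosome 9 interactions gave -1.83 and -1.77 there. Leaving out the reads of Zic1, Zic4 and Sox14 at the viewpoint with an empty stretch, with its distant reads kept in the total, gave -2.19 and -2.47. In limma that viewpoint was left out of both reads and total for these genes, and 22 zones and 7 of the 7 genes were called. Both alternatives were chosen after seeing the data. The far share at the enhancers differed by 6.39 to 7.16 percentage points with 1 library left out. The difference at Foxa2 and Lhx1, -0.22 on the log2 scale, turned to 0.049 per all interactions, and ranged from -0.63 to 0.52 with 1 library left out; 6 ESC reads carry it, and the cause was not tested.

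The count of enhancer zones called, 22, fell to 8 with a pseudocount of 10, to 11 with no minimum, to 10 in DESeq2, to 8 with all 3 cell types and to 6 with 40 kb bins, rose to 48 per chromosome 9 interactions, and was 3 to 18 with 1 library left out (3 without DE replicate 1). Of the 7 genes (a count, like the erythrocyte alternatives at the Eomes promoter, added after seeing the data), 4 were called with all 3 cell types and 3 to 7 with 1 library left out. The Eomes promoter count of 10 was 6 to 14 with 1 library left out, 6 of them without DE replicate 1. The cause of these changes was not tested.

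Replicate numbers do not pair the samples: deviations of same-numbered ESC and DE libraries correlated at -0.00337, -0.0729 and -0.0279 for the Eomes promoter and at -0.0104, 0.0809 and -0.0336 for the enhancers. With the replicate block the zones called were 8 and 20, 7 of the 7 genes were called at the enhancers, the log2 differences were -2.45 and -3.50 at the Eomes promoter, -2.16 and -2.49 at the enhancers (exact sign-flip p = 0.25, the smallest possible) and 0.074 at Foxa2 and Lhx1, and the far share difference was 6.74 percentage points.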
